A study of Homo sapiens with 6 samples.

Results

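The 10 genes described here belong to the YAP and TEAD branch of gene control. They are the coactivators YAP1 and WWTR1 (the gene of TAZ), their DNA-binding partner TEAD1, the feedback genes LATS2 and AMOTL2, the matricellular genes CCN1, CCN2 and THBS1, and the target genes ANKRD1 and NT5E. They were chosen by symbol, each matched 1 of the 61806 genes of the deposited table, and all 10 were among the 16082 genes with enough counts to test. The cells were A549, an established line from a human adenocarcinoma of the lung with the genotype label WT, and 3 mRNA libraries were made after the solvent DMSO and 3 after Japoflavone B. Cells were seeded for 24 h and then treated for 24 h. The labels give a dose of 40 without a unit, and title the treated libraries LE-532 without explaining the code. Separate cultures are not stated, so p-values here reflect only how far these 6 libraries scatter, which may be technical. The compound is described by the series as an inhibitor of PARP1, an enzyme of DNA repair, and the question put to the libraries was which transcripts it alters on the way to cell death.

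YAP1 and TAZ are transcriptional coactivators that cannot bind DNA themselves and reach their target genes through TEAD factors. The Hippo kinases, with LATS1 and LATS2 at the end of the cascade, phosphorylate YAP1 and TAZ and keep them out of the nucleus when cells are crowded or their actin cytoskeleton is slack. Control is thus largely at the level of the protein, which mRNA levels do not show. CCN1 and CCN2 are the targets most often used as a readout, and they are also induced by growth factors and stress through other transcription factors. LATS2 and AMOTL2 are targets that in turn restrain YAP1.

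Depth was 15298531 to 21744407 gene counts per library, and Pearson correlations of log2 CPM, counts scaled by library size, lay at 0.990 to 0.992 for libraries of 1 group and at 0.926 to 0.931 across groups. Markers of A549 cells were present, led by ALDH1A1, AKR1B10 and NQO1. After treatment 10 of the 11 were called lower, against 35.4% of all genes tested. Their summed level was 6703 to 7167 FPKM after DMSO and 2345 to 2407 FPKM after Japoflavone B. Much of the sum came from ALDH1A1, at a mean of 2973 and 626 FPKM, and AKR1B10, at 1589 and 622.1 FPKM. FPKM are counts scaled by exonic gene length and by the library total, so levels of different genes can be compared. Whether this length fits the transcripts in use was not tested. Of the markers of other cell types, 8 of 9 for fibroblasts, 6 of 7 for endothelium and 6 of 7 for leukocytes stayed below 1 FPKM in every library, and KDR, TEK, VWF, CD3E and HBB had no count. Summed levels were 5.62 to 6.49 FPKM after DMSO and 1.27 to 1.67 after Japoflavone B for the fibroblast list, 10.2 to 13.1 and 13 to 15.4 for the endothelial list, and 2.14 to 3.05 and 0.41 to 0.69 for the leukocyte list. After DMSO most of each sum came from COL1A1, EGFL7 and CD14, ahead of THY1 and COL1A2, CLDN5 and CDH5, and CD68 and LYZ, and COL1A1 went from 4.64 ± 0.295 to 0.473 ± 0.0586 FPKM. Mitochondrial transcripts took 3.97% to 4.7% of counts after DMSO and 8.33% to 8.58% after Japoflavone B, and calls for the 10 genes were the same with these transcripts left out. The part of the marker shifts in the results below was not tested.

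After Japoflavone B, the secreted matricellular genes moved apart: CCN1 rose 7.17-fold and CCN2 1.99-fold while THBS1 fell 2.15-fold. The ectonucleotidase gene NT5E rose 4.77-fold. The genes of the transcription complex itself differed much less, with WWTR1 and TEAD1 1.15-fold lower and YAP1 not past the threshold. Of the 2 feedback genes LATS2 rose 1.48-fold and AMOTL2 fell 1.27-fold, and ANKRD1 rose 1.4-fold in a call that rests on 1 library. In all, 5 genes were higher, 4 lower and 1 was not called (edgeR quasi-likelihood test, Benjamini-Hochberg adjusted p under 0.05 over all genes tested). Among all genes tested 34.7% were called higher and 35.4% lower, 70.0% in either direction, so a call by itself sets the 10 genes little apart from the rest. A call with at least a 2-fold change was found for 3 of the 10, against 24.7% of all genes tested. The median log2 fold change of the 10 was 0.22, against a median near 0 for all genes tested. In bulk RNA a change of the cell population and a change of RNA per cell cannot be told apart.

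**Figure D1:**
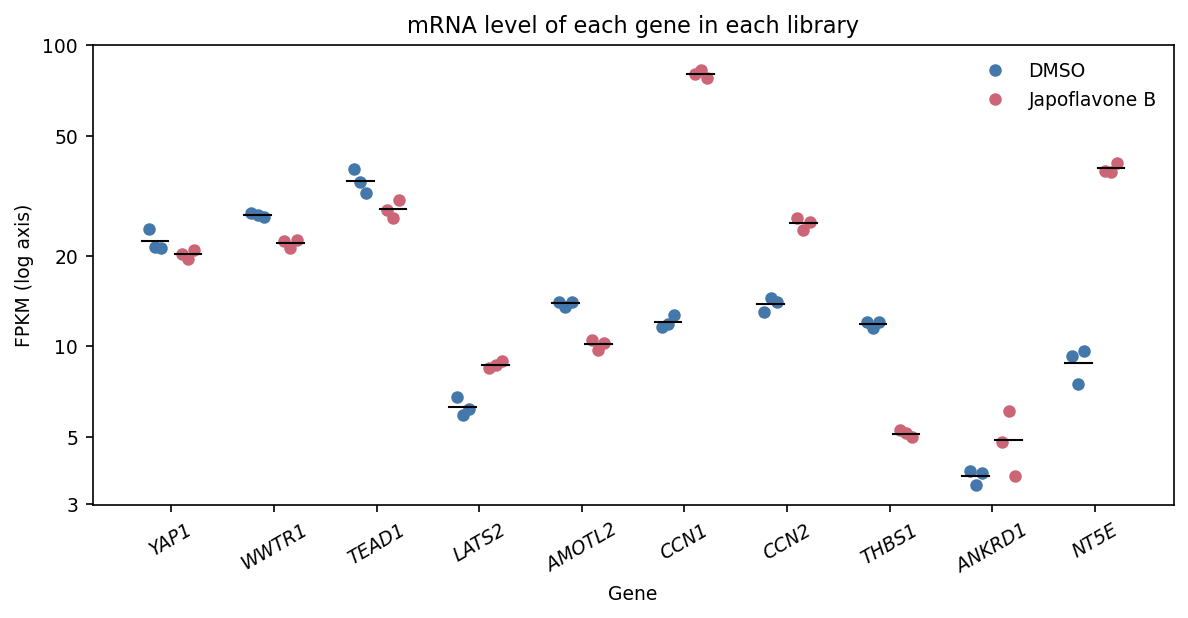
Level of the 10 genes in each of the 6 libraries, in FPKM on a log axis; points are libraries and black bars are group means (n = 3). On this FPKM scale the groups overlap only for ANKRD1. CCN1 and NT5E stand far above their DMSO levels and THBS1 below.

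In solvent libraries TEAD1 was the most abundant of the 10 transcripts per length, at 35.3 FPKM, followed by WWTR1 at 27.3 and YAP1 at 22.3. AMOTL2 (13.9) and CCN2 (13.8) came next and overlapped between libraries, as did CCN1 (12.0) and THBS1 (11.9). NT5E at 8.79, LATS2 at 6.3 and ANKRD1 at 3.71 FPKM closed the order. After Japoflavone B CCN1 led at 80.1 FPKM and NT5E was next at 38.9, above TEAD1 at 28.55. In treated libraries the ranges of TEAD1 and CCN2 met at 26.67 FPKM, those of THBS1 and ANKRD1 overlapped, and the other neighbours in the order were apart. Thus CCN1 and NT5E, which had stood below TEAD1, WWTR1 and YAP1 in solvent libraries, stood above them in treated ones. The FPKM of the groups did not overlap in 9 of the 10 genes, against 71.6% of all genes tested.

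The coactivators changed little. YAP1 (ENSG00000137693, chromosome 11, 102110447 to 102233424, GRCh38) had 24.46, 21.35 and 21.19 FPKM after DMSO and 20.16, 19.42 and 20.94 after Japoflavone B. DMSO replicate 1 was the highest, and the nearest libraries of the groups were 21.19 and 20.94 FPKM. On the scale of the test, which uses trimmed-mean factors, the log2 fold change was -0.05 ± 0.06 (SE; edgeR adjusted p = 0.503), with a 95% interval of -0.17 to 0.08. The call turned to lower where libraries were scaled by their totals in edgeR (-0.15 log2; adjusted p = 0.0298) or as TPM, which gives every library the same sum of length-scaled values, in limma (-0.25 log2; adjusted p = 0.00773), and without DMSO replicate 1 the value was 0.03 log2 (adjusted p = 0.642). WWTR1 (ENSG00000018408, chromosome 3, 149517235 to 149736714), whose product TAZ is the paralogue of YAP1, had 27.66, 27.18 and 26.94 FPKM after DMSO and 22.37, 21.25 and 22.5 after Japoflavone B. The 3 treated libraries were lower than every solvent library, and WWTR1 fell by 0.20 ± 0.05 on the log2 scale (SE; edgeR adjusted p = 7.01e-04). The ratio of YAP1 to WWTR1, which does not depend on how libraries are scaled, was 0.819 ± 0.0568 per length in solvent libraries and 0.915 ± 0.0149 in treated ones (SD, n = 3). It was higher in all 3 treated libraries, with an exact two-sided permutation p = 0.1, the smallest that 3 against 3 allows.

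TEAD1 (ENSG00000187079, chromosome 11, 12674421 to 12944737), the DNA-binding partner, had 38.65, 35.16 and 32.15 FPKM after DMSO and 28.37, 26.67 and 30.6 after Japoflavone B. The groups did not overlap, and the log2 fold change was -0.21 ± 0.06 (edgeR adjusted p = 0.00304). The exact permutation test of log2 CPM gave p = 0.2 for TEAD1 and p = 0.8 for YAP1, since on that scale their libraries interleave; it gave p = 0.1 for each of the other 8 genes. Besides YAP1, WWTR1 and TEAD1, 5 genes of this list of coactivators, TEADs and cofactors could be tested, of which 3 rose and 2 fell. With 34.7% of all genes tested called higher and 35.4% lower, these calls say little by themselves. The other TEAD genes moved in both directions. TEAD2 fell from 10.9 ± 0.773 to 3.94 ± 0.594 FPKM, 2.55-fold lower (SE 0.10 on the log2 scale; edgeR adjusted p = 3.12e-12). CD37 overlaps TEAD2 on the other strand and its counts summed to 635 after DMSO and 128 after Japoflavone B; without a stated strand setting such reads cannot be assigned with certainty. TEAD3 rose 1.71-fold, from 2.65 ± 0.245 to 4.25 ± 0.43 FPKM (edgeR adjusted p = 4.63e-06), and TEAD4 rose 1.28-fold, from 10.4 ± 0.814 to 12.5 ± 0.79 FPKM (edgeR adjusted p = 6.87e-04), a call lost as TPM (adjusted p = 0.0944). Of the summed FPKM of the 4 TEAD genes, TEAD1 held 59.6% ± 0.795 after DMSO and 57.9% ± 2.67 after Japoflavone B, TEAD2 18.3% ± 0.55 and 8% ± 1.17, TEAD3 4.48% ± 0.514 and 8.64% ± 1.07, and TEAD4 17.6% ± 0.479 and 25.5% ± 2.1 (SD, n = 3). TEAD1 thus remained the main TEAD transcript in all 6 libraries, while TEAD2 and TEAD4 interleaved after DMSO and TEAD4 was the higher of these in each treated library. Of the VGLL cofactors, which bind TEADs in competition with YAP1, VGLL3 fell from 3.6 ± 0.279 to 2.53 ± 0.143 FPKM (-0.41 log2; edgeR adjusted p = 2.86e-05). VGLL4, a repressor, had 3.45 ± 0.177 and 3.8 ± 0.248 FPKM (0.24 log2; edgeR adjusted p = 0.0139), a call lost with library totals, in the limma fits of FPKM and TPM (adjusted p = 0.152 to 0.818) and without Japoflavone B replicate 3 (edgeR adjusted p = 0.086). ATG7 overlaps VGLL4 on the other strand with 1403 and 1347 counts, near the 1441 and 1478 of VGLL4 itself. VGLL1 and VGLL2 had no count in any library, which does not exclude a level too low to be counted at this depth.

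The feedback genes moved apart. LATS2 (ENSG00000150457, chromosome 13, 20973036 to 21061586), the kinase that inactivates YAP1 and TAZ, had 6.76, 5.93 and 6.2 FPKM after DMSO and 8.49, 8.66 and 8.9 after Japoflavone B. Every treated library was above every solvent library, and LATS2 rose by 0.57 ± 0.07 log2 (edgeR adjusted p = 8.37e-08). Its paralogue LATS1, named after its values were seen, rose by 0.52 ± 0.08 log2, and the LATS2 to LATS1 ratio per length was 1.31 ± 0.0665 after DMSO and 1.35 ± 0.0878 after Japoflavone B (exact permutation p = 0.6). AMOTL2 (ENSG00000114019, chromosome 3, 134355347 to 134375479), an angiomotin that tethers YAP1 in the cytoplasm and at junctions, had 14.04, 13.51 and 14.04 FPKM after DMSO and 10.47, 9.75 and 10.25 after Japoflavone B. The groups were apart and AMOTL2 fell by 0.35 ± 0.06 on the log2 scale (edgeR adjusted p = 8.25e-06). Both are members of a signature of YAP and TAZ targets, and LATS2 and AMOTL2 had opposite signs in each of the 18 alternatives. Genes whose coordinates overlap one of the 10 added little: the most counted were FSIP1 at THBS1, whose counts summed to 99 after DMSO and 30 after treatment, and WWTR1-AS1 at WWTR1, with 74 and 31.

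The matricellular genes showed the widest spread. CCN1 (ENSG00000142871, chromosome 1, 85580761 to 85584589), a secreted protein that binds integrins and heparan sulfate, had 11.56, 11.81 and 12.67 FPKM after DMSO and 80.02, 82.51 and 77.9 after Japoflavone B. The log2 fold change was 2.84 ± 0.06 (SE; edgeR adjusted p = 1.23e-24), higher than that of 98.7% of all genes tested. CCN2 (ENSG00000118523, chromosome 6, 131948176 to 131951372), also called connective tissue growth factor, had 13.02, 14.44 and 14.03 FPKM after DMSO and 26.67, 24.38 and 25.91 after Japoflavone B. It rose in all 3 treated libraries, by 0.99 ± 0.07 log2 (edgeR adjusted p = 6.07e-13). The third family member with enough counts, CCN5, which lacks the C-terminal domain of the other CCN proteins, fell from 4.22 ± 0.197 to 1.77 ± 0.221 FPKM (2.24-fold lower; edgeR adjusted p = 5.78e-10). CCN3, CCN4 and CCN6 were at or below 0.3 FPKM in every library and were not tested.

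THBS1 (ENSG00000137801, chromosome 15, 39581079 to 39599466), thrombospondin 1, an inhibitor of angiogenesis that also activates latent TGF-beta, went the other way. It had 12.05, 11.53 and 12.01 FPKM after DMSO and 5.27, 5.14 and 4.98 after Japoflavone B. The groups were far apart, with a log2 fold change of -1.11 ± 0.06 (edgeR adjusted p = 1.88e-15). Within a library, CCN1 stood at 0.87 ± 0.0451 times CCN2 per length after DMSO and 3.13 ± 0.22 times in treated libraries (SD, n = 3). Relative to THBS1, CCN1 went from 1.01 ± 0.0493 to 15.6 ± 0.444 and CCN2 from 1.17 ± 0.0858 to 5 ± 0.232. All 3 ratios were higher in every treated library than in any solvent library (exact two-sided permutation p = 0.1 each, the smallest possible). The 3 genes thus went from near equal levels to a state in which CCN1 held 72.2% ± 1.22 of their summed FPKM, CCN2 23.1% ± 1.19 and THBS1 4.62% ± 0.0735, against 31.9% ± 0.778, 36.7% ± 1.38 and 31.5% ± 1.26 after DMSO. Their summed level rose from 37.7 ± 1.04 to 110.9 ± 1.85 FPKM.

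**Figure D2:**
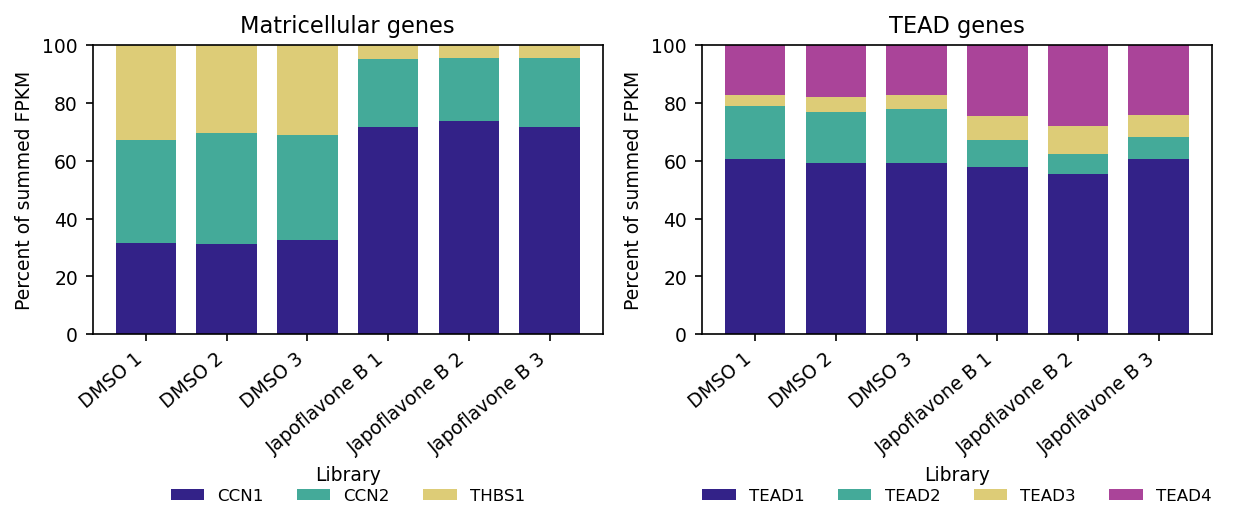
Share of each gene in the summed FPKM of CCN1, CCN2 and THBS1 (left) and of TEAD1 to TEAD4 (right), in percent, for each of the 6 libraries. CCN1 grows from 31.3% to 32.7% of the sum in DMSO libraries to 71.5% to 73.7% in Japoflavone B libraries, while TEAD1 keeps the largest TEAD share and TEAD2 shrinks.

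**Figure D3:**
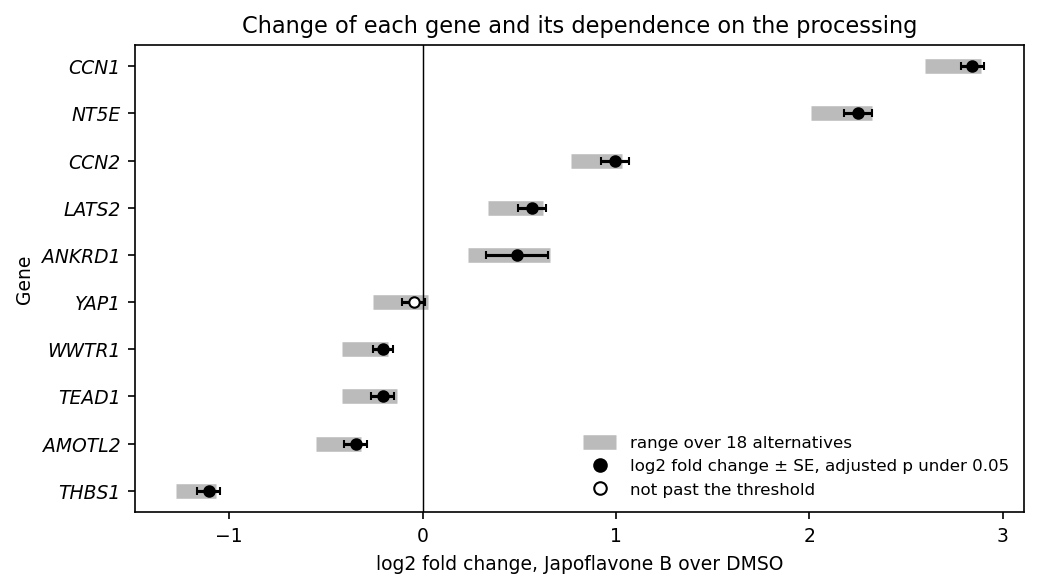
Log2 fold change of each gene after Japoflavone B over DMSO with its SE (points and bars), and the lowest and highest value over the 18 alternatives (grey). Only the range of YAP1 spans 0.

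ANKRD1 and NT5E are targets of other kinds. ANKRD1 (ENSG00000148677, chromosome 10, 90912096 to 90921087), a nuclear cofactor best known from stressed heart muscle, had 3.86, 3.47 and 3.8 FPKM after DMSO and 4.82, 6.07 and 3.7 after Japoflavone B. In FPKM, treated replicate 3 lay within the solvent range and replicate 2 was the highest of all. On the log2 CPM scale of the test the groups did not overlap (exact permutation p = 0.1, the smallest possible). The log2 fold change was 0.49 ± 0.16 (edgeR adjusted p = 0.00902), on 104 to 171 counts per library. Without Japoflavone B replicate 2 the value was 0.31 log2 and no longer passed (edgeR adjusted p = 0.111), and it did not pass in limma on log2 of FPKM or TPM (0.24 to 0.36 log2; adjusted p = 0.0749 to 0.196). Its muscle relatives were low: ANKRD2 had 1.36 ± 0.348 and 0.703 ± 0.13 FPKM (-0.81 log2; edgeR adjusted p = 0.0291, and 0.0607 to 0.147 without DMSO replicate 3 or Japoflavone B replicate 2 or 3), and ANKRD23 had 0.16 ± 0.0265 and 0.117 ± 0.0651 FPKM (edgeR adjusted p = 0.593).

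NT5E (ENSG00000135318, chromosome 6, 85449584 to 85495791) encodes CD73, the surface enzyme that turns extracellular AMP into adenosine. It had 9.25, 7.49 and 9.63 FPKM after DMSO and 38.12, 37.96 and 40.62 after Japoflavone B. The lowest treated library was well above the highest solvent library, and NT5E rose by 2.25 ± 0.07 log2 (edgeR adjusted p = 1.36e-20), more than 97.9% of all genes tested. Of 8 other tested genes of extracellular adenosine, 5 fell, against 35.4% of all genes tested, and 3 did not pass. Their median was -0.30 log2. Counting NT5E, the list had 1 higher and 5 lower, and 3 higher and 3 lower without Japoflavone B replicate 3; 2 were higher without any 1 of the DMSO libraries. CD38, an ectoenzyme that consumes NAD, fell from 3.42 ± 0.369 to 0.603 ± 0.163 FPKM (5.25-fold lower), and ENPP1, which makes AMP from ATP, was 1.7-fold lower. The adenosine receptor gene ADORA2B fell from 13.5 ± 0.914 to 7.19 ± 1.04 FPKM (1.74-fold lower; edgeR adjusted p = 3.83e-08). The other 2 that fell were the nucleoside transporters SLC29A1 and SLC29A2, by 0.16 and 0.30 on the log2 scale.

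Targets of YAP1 and TAZ can carry TEAD motifs near their start sites, and 4 of the promoters with matches before the start are shown here because they differ in number of matches and in the direction of the transcript. RefSeq promoter windows (GRCh38.p14, 250 bases before to 50 after a start site) were found for 8 of the 10 genes, in 10 windows, and none for CCN1 and TEAD1. The TEAD motif was taken as GGAATG on either strand, the AP-1 motif as TGANTCA, which reads the same on both strands, and the CArG box, bound by SRF, by its usual definition. The motifs searched do not overlap each other in these windows. The capitals below mark the TEAD motif, and each sequence is the 250 bases before the start site, read 5′ to 3′ on the strand of the gene.
CCN2, chr6:131951373-131951622, minus strand: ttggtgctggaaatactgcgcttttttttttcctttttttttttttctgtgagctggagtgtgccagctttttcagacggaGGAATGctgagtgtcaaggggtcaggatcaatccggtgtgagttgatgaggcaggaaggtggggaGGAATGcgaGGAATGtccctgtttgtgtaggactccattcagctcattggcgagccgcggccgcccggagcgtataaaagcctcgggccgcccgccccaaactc
ANKRD1, chr10:90921088-90921337, minus strand: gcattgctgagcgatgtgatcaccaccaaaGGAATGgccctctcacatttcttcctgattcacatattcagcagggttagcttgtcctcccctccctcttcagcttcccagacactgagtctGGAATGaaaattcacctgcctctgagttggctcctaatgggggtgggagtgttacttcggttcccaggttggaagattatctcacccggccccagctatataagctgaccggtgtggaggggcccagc
THBS1, chr15:39580829-39581078, plus strand: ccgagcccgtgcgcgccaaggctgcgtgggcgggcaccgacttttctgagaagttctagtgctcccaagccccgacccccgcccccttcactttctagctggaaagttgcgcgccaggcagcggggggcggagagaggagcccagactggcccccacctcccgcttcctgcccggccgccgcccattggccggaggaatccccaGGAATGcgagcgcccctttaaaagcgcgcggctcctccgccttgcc
AMOTL2, chr3:134374448-134374697, minus strand: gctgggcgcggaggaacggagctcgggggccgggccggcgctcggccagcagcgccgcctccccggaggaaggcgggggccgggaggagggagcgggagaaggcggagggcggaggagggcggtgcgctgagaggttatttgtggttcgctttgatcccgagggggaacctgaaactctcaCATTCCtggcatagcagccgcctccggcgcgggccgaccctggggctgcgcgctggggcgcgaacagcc

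CCN2, which rose, held 3 matches, which began 169, 104 and 95 bases before the start site. Of 35116 promoter windows 14% held at least 1 match, 1.37% at least 2 and 0.128% at least 3. ANKRD1 held 2 matches, which began 220 and 128 bases before its start, and the only AP-1 motif among the 10 windows, which began 195 bases before it; 7.71% of all windows held an AP-1 motif. THBS1, which fell, held 1 match that began 46 bases before its start. AMOTL2, which also fell, held 1 on the other strand, 69 to 64 bases before a start site that lies 1032 bases inside the deposited gene. YAP1 had 1 match, 162 bases before its start, and LATS2 1, which began 9 bases after its start. NT5E, whose RefSeq start lies 499 bases inside the deposited gene, and the 2 windows of WWTR1, at start sites 33441 and 78689 bases inside it, held none of these letters, nor did a window of AMOTL2 62 bases inside its gene. No window held a CArG box, against 1.29% of all windows. A match describes letters in a window and does not show that a factor binds there. Windows with a TEAD match thus belong to genes that rose (CCN2, ANKRD1, LATS2), fell (THBS1, AMOTL2) or were not called (YAP1).

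**Figure D4:**
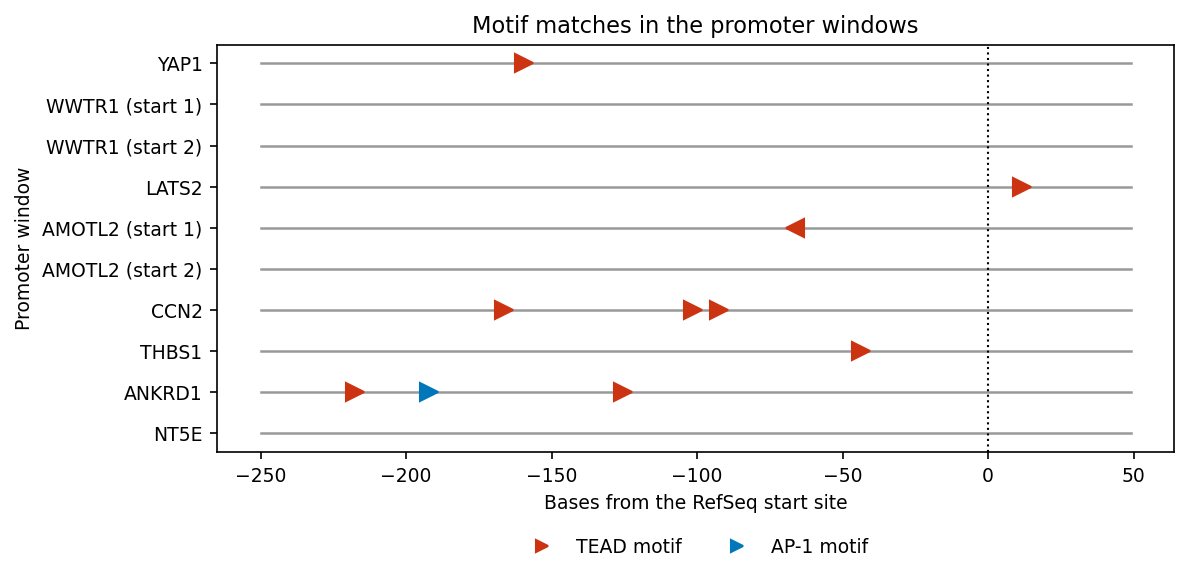
Position of TEAD motif matches (red) and AP-1 motif matches (blue) in 10 promoter windows of 8 genes, in bases from the RefSeq start site (dotted line); arrowheads give the strand relative to the gene. CCN2 has 3 TEAD matches and ANKRD1 has 2 with an AP-1 match between them.

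The wider set of YAP and TAZ targets was divided. A signature of 22 targets holds 6 of the genes above; of its other 16, all tested, 4 rose, 9 fell and 3 did not pass, with a median log2 fold change of -0.18. Over all 22 genes 9 rose, 10 fell and 3 did not pass, with a median of 0.0064 log2. For comparison, 34.7% of all genes tested were called higher and 35.4% lower. GADD45A, a growth arrest gene that is also a p53 target, rose from 7.12 ± 0.751 to 78.7 ± 3.4 FPKM (11.9-fold higher; edgeR adjusted p = 1.55e-24). The receptor tyrosine kinase gene AXL rose from 44.5 ± 1.21 to 94.6 ± 0.2 FPKM (2.28-fold higher) and the phosphatase gene PTPN14, whose product binds YAP1, from 3.74 ± 0.366 to 6.27 ± 0.731 FPKM (1.79-fold higher). The other that rose, NUAK2, a kinase gene, was 0.66 log2 higher. CCDC80, a matrix protein gene, fell from 18 ± 0.389 to 2.32 ± 0.233 FPKM (7.26-fold lower; edgeR adjusted p = 1.14e-23), the growth factor gene TGFB2 from 26.9 ± 1.76 to 4.47 ± 0.175 FPKM (5.59-fold lower), and IGFBP3, which binds insulin-like growth factors, from 102.1 ± 2.21 to 25.8 ± 0.998 FPKM (3.69-fold lower). The signature therefore held changes of over 5-fold in both directions.

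Transcripts of the Hippo kinase cascade were mostly higher. Besides LATS2, 17 genes of the core kinases, their adaptors and the related MAP4K and TAO kinases were tested. Of these 13 rose, 2 fell and 2 did not pass, with a median of 0.38 log2. Over all genes tested 34.7% were called higher and 35.4% lower, 70.0% in either direction. The changes were small: the highest were STK25 (1.68-fold higher), MINK1 (1.61-fold higher) and TAOK3 (1.51-fold higher), and the 2 that fell were MAP4K4 (1.54-fold lower) and TAOK2 (1.37-fold lower). STK25 went from 9.25 ± 0.474 to 14.5 ± 0.753 FPKM and MAP4K4 from 16.1 ± 0.991 to 9.72 ± 0.686 FPKM. FARP2 overlaps STK25 on the other strand, where its counts fell from 3365 to 2129 over a group, and the pseudogene RPS2P5 overlaps TAOK3, where its 6356 and 8584 counts exceed the 2880 and 3778 of TAOK3. Counting LATS2, 14 of 18 rose. This number was 13 to 15 with 1 library left out and 8 to 14 in the other alternatives. It was 12 by library totals in edgeR, 9 in limma on log2(FPKM + 0.1) and 8 in limma on log2(TPM + 1). The limma fits change both the scaling and the test.

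**Figure D5:**
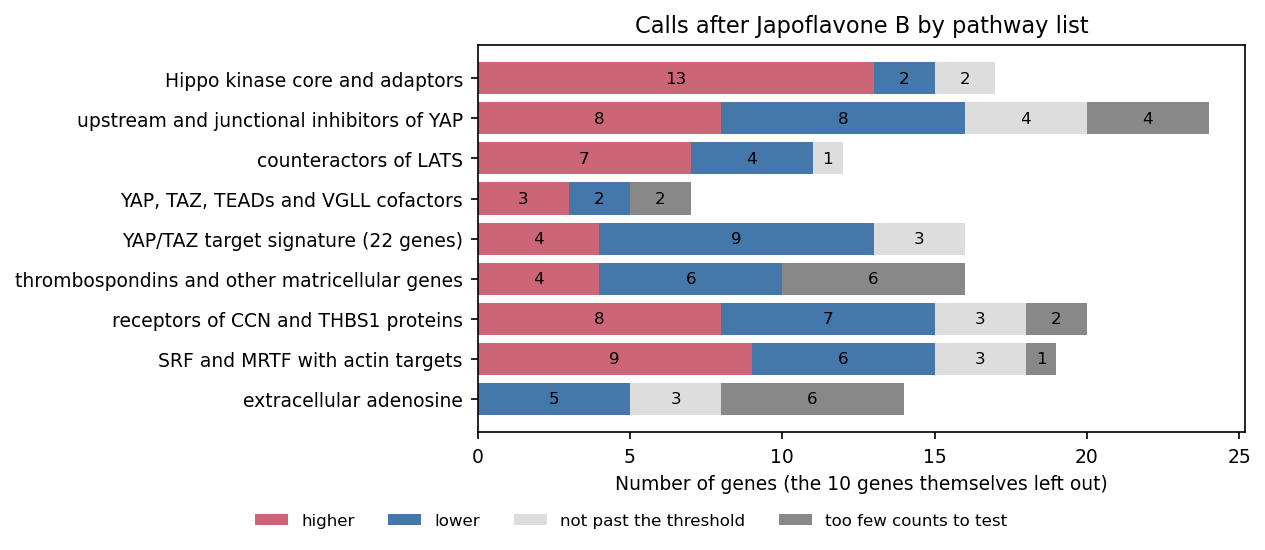
Number of genes in each pathway list that were called higher, lower or not past the threshold after Japoflavone B, or had too few counts to test, with the 10 genes left out. Of the Hippo kinases 13 of 17 were higher, and of the signature without the 10 genes 4 were higher and 9 lower, while 34.7% and 35.4% of all genes tested were called higher and lower.

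Genes that act on the kinases from outside moved in both directions. Of 12 genes whose products counteract LATS, 7 rose, 4 fell and 1 did not pass, while 34.7% of all genes tested were called higher and 35.4% lower. The 4 that fell are LIM domain proteins of junctions and adhesions: TRIP6, from 12.7 ± 1.28 to 5.38 ± 0.693 FPKM (2.18-fold lower), LIMD1 (1.65-fold lower), WTIP (1.53-fold lower) and AJUBA (-0.56 log2). The LIM protein gene ZYX, zyxin, rose from 30.8 ± 1.29 to 56.9 ± 2.18 FPKM (1.98-fold higher), and of the STRIPAK phosphatase complex, which dephosphorylates the upstream kinases, FGFR1OP2 was 1.93-fold higher. Of 20 other upstream and junctional inhibitors of YAP1, 8 rose, 8 fell and 4 did not pass. These inhibitors lie near the shares over all genes tested given above. The polarity gene SCRIB rose 2.07-fold, and FRMD6, an activator of the kinases, 1.8-fold. E-cadherin, CDH1, fell 3.6-fold, and the scaffolds of polarity and tight junctions DLG1 and TJP1 2.02-fold and 1.86-fold. The pseudogene HMGN2P5 lies opposite TJP1 with 1863 and 645 counts, against 18691 and 8700 for TJP1. In the pathway that the deposited table itself assigns as KEGG Hippo signaling, a list taken up after values were seen, 56 of 138 other tested genes rose, 58 fell and 24 did not pass (median -0.06 log2). This too is near the shares over all genes tested.

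Among matricellular genes other than THBS1, 4 of 10 tested rose and 6 fell. SMOC1 was 1.57-fold higher, with a ribosomal pseudogene on its other strand whose counts rose from 4372 to 6164. FBLN5 was 2.91-fold lower, SPARC 2.25-fold lower and osteopontin, SPP1, 1.66-fold lower. Among receptors that CCN and THBS1 proteins bind, 8 of 18 rose, 7 fell and 3 did not pass. The shares over all genes tested, to set beside both lists, were 34.7% higher and 35.4% lower. The integrin subunit genes ITGA3 and ITGA2 rose from 46.6 ± 1.11 to 253.7 ± 0.837 FPKM (5.85-fold higher) and from 8.31 ± 1.1 to 49.8 ± 2.86 FPKM (6.42-fold higher), and the proteoglycan gene SDC4 was 3.32-fold higher. The alpha v and beta 5 subunits, which pair as a receptor for CCN1, fell: ITGB5 from 98.1 ± 4.77 to 32.1 ± 1.09 FPKM (2.85-fold lower) and ITGAV from 28.9 ± 2.08 to 17.9 ± 0.345 FPKM (1.5-fold lower). LRP5, a Wnt coreceptor, was 1.47-fold lower. The alpha 6 and beta 1 subunits, which pair as another receptor for CCN1, rose: ITGA6 by 0.37 and ITGB1 by 0.25 log2, both named after their values were seen.

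CCN1, CCN2 and ANKRD1 can also be induced through SRF and its actin-sensing MRTF partners. Of 18 other genes of this list 9 rose, 6 fell and 3 did not pass, while 34.7% of all genes tested were called higher and 35.4% lower. ZYX, also listed above as a counteractor of LATS, is among those that rose. The smooth muscle actin gene ACTA2 rose from 5.45 ± 0.0404 to 39.3 ± 2.84 FPKM (7.75-fold higher), and FAS and STAMBPL1, which overlap it on the other strand, went from 966 to 1755 and from 1044 to 811 counts summed over a group. FHL2, a LIM domain cofactor, rose 4.33-fold and filamin A, FLNA, from 242.6 ± 1.22 to 489.9 ± 5.42 FPKM (2.17-fold higher). The gene of SRF itself, named after its values were seen, rose from 7.98 ± 0.163 to 15.7 ± 1.05 FPKM (2.11-fold higher; edgeR adjusted p = 1.03e-13), and MRTFB, likewise, by 0.24 log2. The coactivator gene MRTFA fell from 13.2 ± 1.16 to 5.41 ± 0.101 FPKM (2.27-fold lower), the tropomyosin gene TPM1 2.28-fold, and MYOCD, which summed to 517 counts after DMSO and 37 after treatment, 12.1-fold. The list thus held large changes in both directions, as the target signature did.

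Patterns most like those of 3 of the genes were sought among 7522 other genes with a symbol and at least 5 FPKM in the higher group, as the smallest root mean square difference over the 6 libraries of log2 CPM centred on the DMSO mean. For CCN1 these were DUSP1 (0.03), EPHA2 (0.03) and ADPRM (0.05 log2), which rose by 2.85, 2.86 and 2.83 log2. For CCN2 they were PLEKHM2, CCDC92 and VPS37B, each at 0.03 log2, and for YAP1 NEO1 (0.02), ABHD2 and TACC1 (0.03 log2 each). With 6 libraries in 2 groups, likeness rests mainly on the size of the group difference.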

How the data were processed

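Poly(A) RNA of A549 cells was sequenced in 6 libraries, per the labels' protocols. Per the submitters' processing notes the build was GRCh38 and the tools included HISAT2 2.0.1, cutadapt 1.9.1, DESeq2 and HTSeq 0.6.1, in no given role or order; annotation release and strand setting are not given in the sources used here. The deposited table holds the authors' raw counts per gene, as whole numbers, and the authors' FPKM, which recomputation from counts, exonic gene size and column totals matched within 0.005. Exonic size per gene comes from the same deposited table.

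The 10 genes, the 11 pathway lists, the markers and the tests were chosen with earlier results of these data known. Counts were filtered with filterByExpr (minimum count 10, minimum total 15), scaled by trimmed-mean factors (0.957 to 1.04) and fitted with edgeR 4.0.16 in R 4.3.3 (quasi-likelihood, group as the single term). FPKM in the text are scaled by library totals, so that their ratios differ slightly from the fold changes. Single values also had an exact permutation test on log2 CPM (prior count 2), and ratios were formed within each library from counts per gene length. From each list the 3 highest and 3 lowest fold changes past the threshold and at 1 FPKM or more were named, with all TEAD, VGLL, CCN and muscle ankyrin genes, overlapping genes and the 3 most alike patterns; any other gene was named after its values were seen, and some genes that the rule names are not reported here. Promoters came from RefSeq (GRCh38.p14). On counts simulated for 15659 genes, the fit found 65 of 92 genes with a 1.5-fold and 81 of 97 with a 2-fold change, and called 5 of 15470 without one. Few genes were changed in that simulation, whereas 70.0% of genes tested were called in the data, so its rates need not hold here. Alternatives were other scalings, filters, DESeq2 1.42.0, limma 3.58.1 and each library left out. The labels mention no molecular identifiers, so counting error is a lower limit of error.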

Additional observations from a re-analysis of the deposited data

How the results depend on the processing

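Of the 10 genes, 8 kept direction and call in all 18 alternatives: CCN1 (2.60 to 2.89 log2), NT5E (2.01 to 2.33), CCN2 (0.77 to 1.03), LATS2 (0.34 to 0.63), AMOTL2 (-0.55 to -0.32), WWTR1 (-0.42 to -0.18), TEAD1 (-0.42 to -0.13) and THBS1 (-1.28 to -1.07). YAP1 was called lower with library totals (-0.15) and as TPM (-0.25) and turned to 0.03 log2 without DMSO replicate 1; leaving out 1 library gave -0.0873 to 0.0282. ANKRD1 did not pass in limma on log2 of FPKM + 1, + 0.5 and + 0.1 (0.30, 0.33 and 0.36 log2) and of TPM + 1 (0.24), and ranged from 0.31 to 0.66 with 1 library left out; the cause was not tested. Library totals moved the median gene by -0.10 log2 and the share of calls that were higher from 49.5% to 42.4%, and limma on log2(TPM + 1), which changes the test as well, by -0.21 log2 and to 35.0%. As TPM the numbers called higher were 8 for Hippo kinases (9 in limma on log2(FPKM + 0.1)), 4 for counteractors of LATS, 1 for YAP1, TAZ, TEAD and VGLL genes and 6 for SRF and MRTF genes, and muscle ankyrin genes had 0 higher there and in limma on FPKM. With a mean of at least 2 FPKM, which tests fewer genes, matricellular genes had 2 higher, SRF and MRTF genes 3 lower and muscle ankyrin genes 0 lower. Without a filter, extracellular adenosine genes had 2 higher, and with 1 library left out 1 to 3 higher and 3 to 5 lower; muscle ankyrin genes then had 0 to 1 higher and 0 to 1 lower. The labels state no pairing of libraries by replicate number. Deviations of libraries with the same number correlated at 0.0134, -0.0042 and -0.0446, which shows no sign of pairing but cannot exclude it with 3 libraries per group. The fit with a replicate block called 5502 genes higher and 5618 lower against 5577 and 5686 and changed no call among the 10 genes. Depth limits ANKRD1 most, at 104 to 171 counts per library.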
